A study of Homo sapiens with 16 samples.

Results

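The chromatin bound by BCL11A in HUDEP-2 cells was set against the chromatin bound by ZBTB7A in K562 cells. Both factors were mapped by chromatin immunoprecipitation with sequencing (ChIP-seq), and the members were all regions of the 2 lists that the authors had filtered across replicates, on hg38 and on the standard chromosomes, with identical intervals counted once. This gave 12911 BCL11A regions and 17331 ZBTB7A regions, together 30242 of the 85461 regions in the 4 lists of the series. HUDEP-2 is an immortalised line of human erythroid progenitors. The cells carried BCL11A-ER-V5, a tamoxifen-inducible and V5-tagged BCL11A, and were harvested 24 h after 4-hydroxytamoxifen was added to 1e-07 M; an antibody against the V5 tag was used, so these regions are those of the introduced protein (2 ChIP and 2 control libraries). K562 is an erythroleukaemia line, in which ZBTB7A itself was precipitated with antibodies from 2 suppliers and no treatment was labelled (4 ChIP and 4 control libraries). Further ZBTB7A lists, used below to describe the same regions, came from HUDEP-2 cells without the Gγ-globin gene (ΔGγ), whose remaining γ-globin promoter either carried the 195C>G substitution or was wild type (WT); each of these lists rests on 1 ChIP and 1 control library. The titles name the controls as input and the antibody label names IgG, and the labels do not settle which was used.

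BCL11A and ZBTB7A (also called LRF) are zinc-finger repressors that keep HBG1 and HBG2, the fetal γ-globin genes, silent in adult red cells. They bind separate sequences in the γ-globin promoters, and both recruit histone deacetylase complexes such as NuRD. ZBTB7A also acts in red cell maturation and survival, and BCL11A also acts in lymphocytes and stem cells.

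One list was deposited for each factor, so no spread between replicates can be given and no p-value was computed; the 95% intervals are exact Clopper-Pearson intervals and cover counting error only, since neighbouring regions are not independent. Factor, cell line, tag and antibody all differ between the lists and cannot be told apart. Read depth is unknown. The lists hold no expression values, so the lines were not checked against marker RNA.

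Promoters of protein-coding genes show what was compared at the level of sequence. A RefSeq promoter window runs from 250 bases before a transcription start to 50 bases after it (GRCh38.p14). A window counted as bound when regions of a list covered at least 150 of its 300 bases. The 2268 windows covered for a smaller part were placed in no class but are counted among all windows. Among 21465 windows, from 15202 of 18677 genes looked up (81.4%), 833 were bound by both factors, 1100 by BCL11A alone, 2356 by ZBTB7A alone and 14908 by neither. Below are the 250 bases before the start of 6 such windows, the best placed in their lists that hold the motif named, 5′ to 3′ on the strand of the gene. In the first pair, bound by both factors, capitals mark TGACCA (or its reverse complement TGGTCA), the core sequence recognised by the zinc fingers of BCL11A, in GDF15 (chr19:18385908-18386157, plus strand), and GACCACC (or GGTGGTC), the core of a sequence bound by ZBTB7A in vitro, in PDIA6 (chr2:10812786-10813035, minus strand). GDF15 encodes a stress cytokine that erythroblasts secrete, and PDIA6 a protein disulfide isomerase.
GDF15: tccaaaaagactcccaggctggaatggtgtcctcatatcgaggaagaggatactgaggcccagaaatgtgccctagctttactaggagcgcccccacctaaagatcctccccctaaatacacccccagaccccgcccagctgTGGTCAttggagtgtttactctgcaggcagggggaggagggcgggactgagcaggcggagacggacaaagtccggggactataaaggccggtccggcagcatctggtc
PDIA6: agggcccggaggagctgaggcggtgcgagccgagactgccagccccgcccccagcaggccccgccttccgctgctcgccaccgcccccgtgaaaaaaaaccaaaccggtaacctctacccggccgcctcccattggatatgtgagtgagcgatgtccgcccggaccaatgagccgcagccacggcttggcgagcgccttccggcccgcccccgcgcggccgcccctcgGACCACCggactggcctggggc
In the next pair, bound by BCL11A alone, capitals mark TGACCA or its reverse complement. FZD5 (chr2:207769907-207770156, minus strand) encodes a Wnt receptor, and USP28 (chr11:113875573-113875822, minus strand), which holds 2 copies, a deubiquitinase.
FZD5: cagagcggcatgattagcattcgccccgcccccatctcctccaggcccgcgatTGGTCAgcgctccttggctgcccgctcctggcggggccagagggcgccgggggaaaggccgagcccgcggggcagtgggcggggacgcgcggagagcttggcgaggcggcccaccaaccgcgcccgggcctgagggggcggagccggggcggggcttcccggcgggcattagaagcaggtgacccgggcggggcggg
USP28: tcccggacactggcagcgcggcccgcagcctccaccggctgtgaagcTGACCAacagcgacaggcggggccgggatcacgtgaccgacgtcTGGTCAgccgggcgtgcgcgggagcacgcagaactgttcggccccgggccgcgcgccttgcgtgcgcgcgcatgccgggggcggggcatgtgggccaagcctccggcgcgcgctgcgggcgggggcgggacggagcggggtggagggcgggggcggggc
In the last pair, bound by ZBTB7A alone, capitals mark CCTTCCCC (or GGGGAAGG), a stretch found in the ZBTB7A site of the γ-globin promoters, in CHPF (chr2:219543810-219544059, minus strand), and GACCACC in TADA3 (chr3:9792474-9792723, minus strand). CHPF encodes an enzyme of chondroitin synthesis and TADA3 a subunit of histone acetyltransferase complexes.
CHPF: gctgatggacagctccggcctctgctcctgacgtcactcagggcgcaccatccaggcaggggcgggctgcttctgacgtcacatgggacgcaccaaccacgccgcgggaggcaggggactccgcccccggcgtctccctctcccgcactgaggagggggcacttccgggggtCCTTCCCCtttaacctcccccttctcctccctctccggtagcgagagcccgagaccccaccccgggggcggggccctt
TADA3: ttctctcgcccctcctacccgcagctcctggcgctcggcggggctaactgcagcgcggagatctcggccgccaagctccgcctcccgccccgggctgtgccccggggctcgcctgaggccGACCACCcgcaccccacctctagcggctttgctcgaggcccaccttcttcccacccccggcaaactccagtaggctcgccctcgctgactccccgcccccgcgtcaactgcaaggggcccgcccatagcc

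Windows bound by both factors held GACCACC more often than windows bound by BCL11A alone, and TGACCA less often, with intervals that did not overlap. The 21465 windows came from 15202 genes, so windows of 1 gene can share bases and a match. They are not independent, and the intervals cover counting error only. TGACCA stood on either strand in 8.52% of windows bound by both (71 of 833, interval 6.72 to 10.6%), in 13.5% of those bound by BCL11A alone (149 of 1100, 11.6 to 15.7%) and in 5.14% of those bound by ZBTB7A alone (121 of 2356, 4.28 to 6.11%), against 9.79% of windows bound by neither and 9.23% of all windows. GACCACC was held by 5.76% of windows bound by both (48 of 833, 4.28 to 7.57%), by 2.09% of those bound by BCL11A alone (1.33 to 3.12%) and by 4.63% of those bound by ZBTB7A alone (3.81 to 5.55%), against 2.92% of all windows. CCTTCCCC was held by 7.08%, 4.36% and 9.04% of the windows bound by both, by BCL11A alone and by ZBTB7A alone, against 6.67% of all. TGACCA and GACCACC can share bases as TGACCACC, which occurred in 143 of the 185 windows holding both. The commoner TGNCCA followed the order of TGACCA, at 36.0% with both, 46.5% with BCL11A alone and 30.8% with ZBTB7A alone, against 40.5% of all windows.

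Base composition moved with these classes. The median GC content was 70.3% in windows bound by both, 69.0% with BCL11A alone and 67.7% with ZBTB7A alone, against 59.3% in windows bound by neither. GATAA, the sequence of GATA factors, stood in 11.5%, 11.5% and 10.6% of the bound classes in the same order, against 21.7% of windows bound by neither, and CCAAT, the sequence of NF-Y, in 29.5%, 35.6% and 30.6%, against 35.5%. The part of GC content in the motif shares was not tested. Windows on chromosome 8 were not used here. A match is a string of letters in a window, not a bound site.

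The first question was how the shared regions are distributed over each list. Of the BCL11A regions, 31.9% were overlapped by at least 1 bp by a ZBTB7A region (4125 of 12911), and of the ZBTB7A regions 24.1% were overlapped by a BCL11A region (4185 of 17331). A promoter region had its midpoint within 1 kb of the start of a protein-coding transcript, and all others are called distal. Sharing was commoner at promoters in both lists. BCL11A promoter regions were overlapped in 42.7% of cases (2325 of 5443, interval 41.4 to 44.0%) and distal ones in 24.1% (1800 of 7468, 23.1 to 25.1%). For ZBTB7A the shares were 31.0% at promoters (2371 of 7654, 29.9 to 32.0%) and 18.7% at distal regions (1814 of 9677, 18.0 to 19.5%). The promoter share was the higher one on 23 of 23 chromosomes, for either list; chromosome Y had 10 BCL11A regions and no ZBTB7A region. When an overlap had to cover at least 50% of both regions, 18.9% of BCL11A and 14.3% of ZBTB7A regions were shared, and the promoter-minus-distal differences of 18.6 and 12.2 percentage points became 8.12 and 4.96. In the first 50% of each list, by BCL11A score and by K562 file order, these differences were 11.6 and 5.56 points; whether the K562 order follows strength is not stated in its file.

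Sharing was lower the farther a region lay from a start site, with no single step at 1 kb. Of BCL11A regions with their midpoint within 50 bp of a start, 47.7% were overlapped (393 of 824, 44.2 to 51.2%), and at 250 to 500 bp the share was 40.4%. It was 34.7% at 500 to 1000 bp and 27.4% at 1 to 2 kb, stayed between 24.3% and 25.2% at 2 to 100 kb, and was 18.3% beyond 100 kb (166 of 905, 15.9 to 21.0%). ZBTB7A regions were likewise shared most near starts, with 34.6% within 50 bp (382 of 1105, 31.8 to 37.5%), 24.0% at 500 to 1000 bp, 18.5 to 20.0% from 1 to 100 kb with no steady order, and 15.0% beyond 100 kb (159 of 1058, 12.9 to 17.3%).

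**Figure D1:**
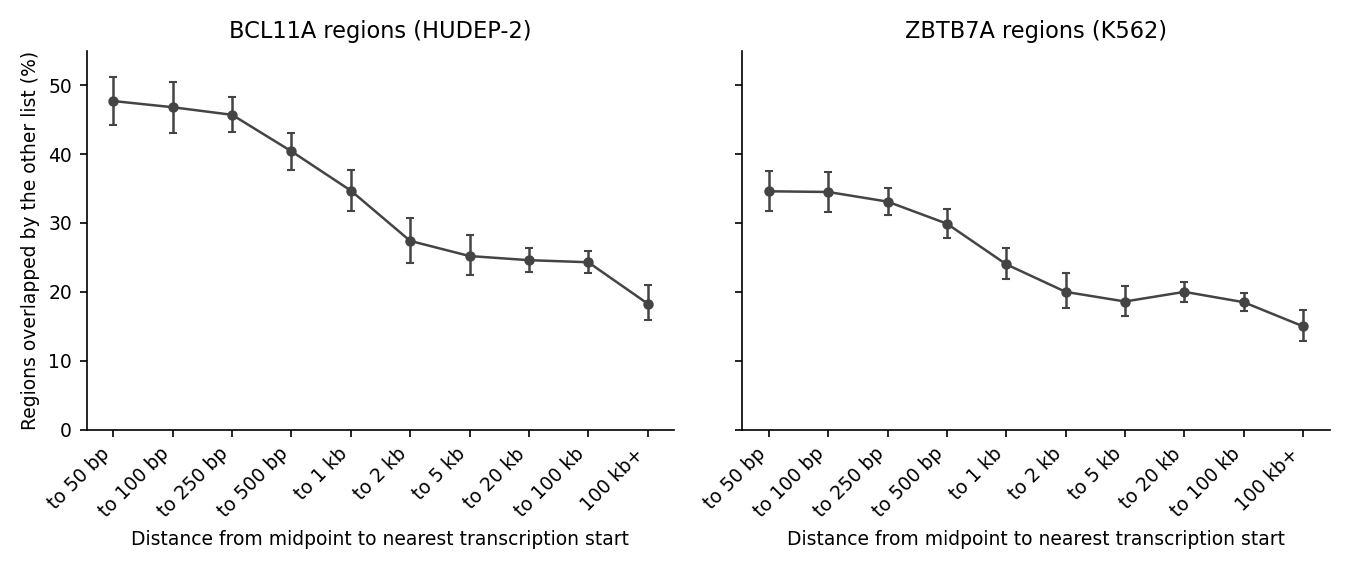
Percent of BCL11A regions (left) and K562 ZBTB7A regions (right) overlapped by the other list, by distance from the region's midpoint to the nearest transcription start of a protein-coding gene; bars are exact 95% intervals. The shares within 50 bp of a start, 47.7% for BCL11A and 34.6% for ZBTB7A, were above those beyond 100 kb, 18.3% and 15.0%.

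The highest decile of BCL11A score was the most shared, at promoters and at distal regions. The authors' score of a BCL11A region ran from 2348 to 12.8. At distal regions 40.5% of the highest decile by score were overlapped (327 of 807, 37.1 to 44.0%), against 14.6% of the lowest (115 of 788, 12.2 to 17.3%). At promoters the shares were 54.4% (264 of 485, 49.9 to 58.9%) and 38.8% (195 of 503, 34.5 to 43.2%). The decline was not even. Most of it lay between the first decile and the second, where the promoter share was 43.4% and the distal share 27.2%; from the second to the sixth decile the promoter share ranged from 42.4 to 46.6% and the distal share from 24.5 to 27.2%. With a reciprocal overlap of at least 50%, 31.9% of the highest decile and 15.2 to 21.3% of each of the other 9 were shared, in no steady order, so that only the highest decile stood apart. At the top of the list, 8 of the first 10, 35 of the first 50 and 61 of the first 100 BCL11A regions were overlapped.

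The order of the ZBTB7A list, which carries no value per region, showed a like pattern at distal regions, with 36.7% overlapped in the first decile (336 of 915, 33.6 to 39.9%) and 16.0% in the last (145 of 908, 13.6 to 18.5%). At promoters the first decile had 40.4% (37.0 to 43.9%) and the last 27.5% (24.5 to 30.7%). The first decile was thus the 1 in which distal and promoter regions of ZBTB7A lay closest. Of the first 10, 50 and 100 ZBTB7A regions, 5, 25 and 48 were overlapped. Region width moved with this order: the median width over all classes was 466 bp in the first decile, 256 bp in the seventh and 490 bp in the last 2. With every region set to 300 bp around its midpoint, the first and last deciles of ZBTB7A still had shares of 34.9% and 19.1%, and those of BCL11A 43.3% and 22.2%.

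**Figure D2:**
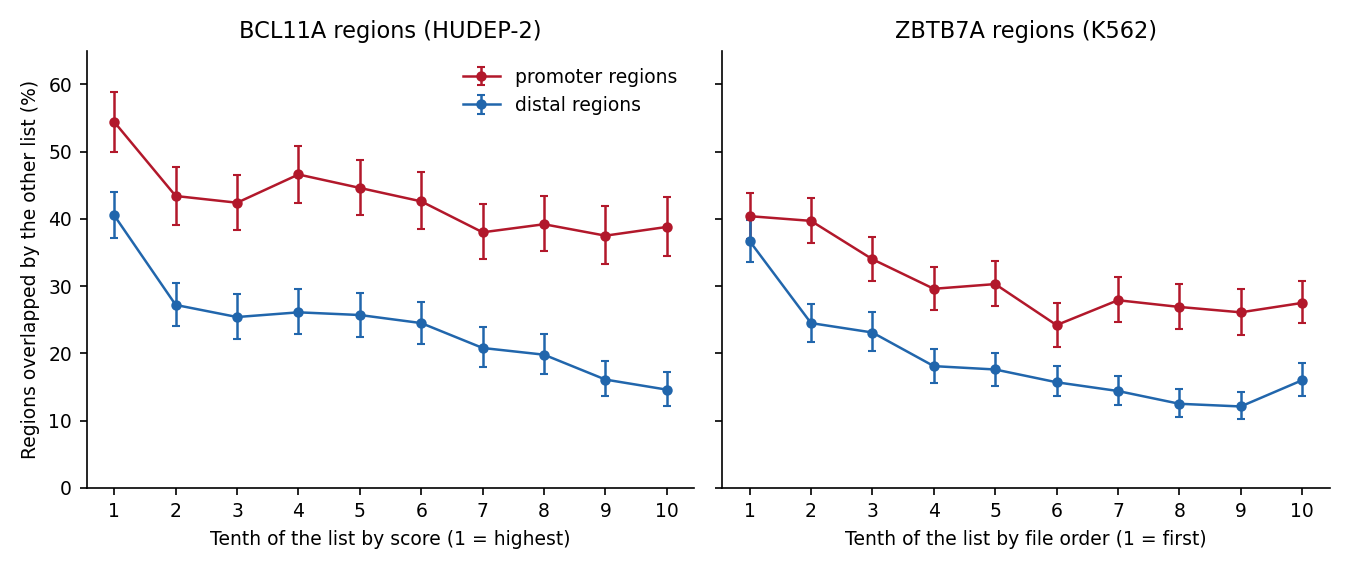
Percent of BCL11A regions (left) and K562 ZBTB7A regions (right) overlapped by the other list, by decile of score or of file order, with promoter regions in red and distal regions in blue; bars are exact 95% intervals. Promoter shares lie above distal shares in every decile of both lists, and the first decile of distal regions stands above the second, at 40.5% against 27.2% for BCL11A and 36.7% against 24.5% for ZBTB7A.

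The ranks of the 2 partners were only weakly related. Over 4595 overlapping pairs the Spearman correlation of the BCL11A rank with the ZBTB7A rank was 0.07, and it was 0.04 over 2638 promoter pairs and 0.09 over 1957 distal pairs; pairs can share a region and are not independent. Of the 1292 BCL11A regions in the highest decile, 591 had a partner. For 126 (9.75% of the 1292) the best partner was in the first ZBTB7A decile and for 16 (1.24%) in the last. Of the 1291 BCL11A regions in the lowest decile, 310 had a partner. For 46 (3.56% of the 1291) the best partner was in the first ZBTB7A decile and for 20 (1.55%) in the last. These percentages include regions without a partner, so they also move with the share overlapped. In 99.0% of pairs both regions were of the same class.

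Partners lay closer together at distal regions than at promoters. The distance between the midpoints of a pair had a median of 77.0 bp in distal pairs (quartiles 31.0 and 161 bp) and 124 bp in promoter pairs (49.0 and 222 bp). Midpoints 50 bp or less from each other made up 37.0% of distal pairs (724 of 1957) and 25.8% of promoter pairs (681 of 2638). Overlaps that covered at least 50% of both regions were 60.8% of distal and 51.3% of promoter pairs. Wider regions can overlap at a larger midpoint distance. Overlapped ZBTB7A regions had a median width of 415 bp at promoters and 374 bp at distal sites, and BCL11A regions 370 bp at both. The part of width in the difference was not tested. The lists give no summit that could be compared, and a width that recurs exactly (370 bp in 72.3% of BCL11A regions, 490 bp in 20.1% of ZBTB7A regions) limits how finely a midpoint places a site.

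**Figure D3:**
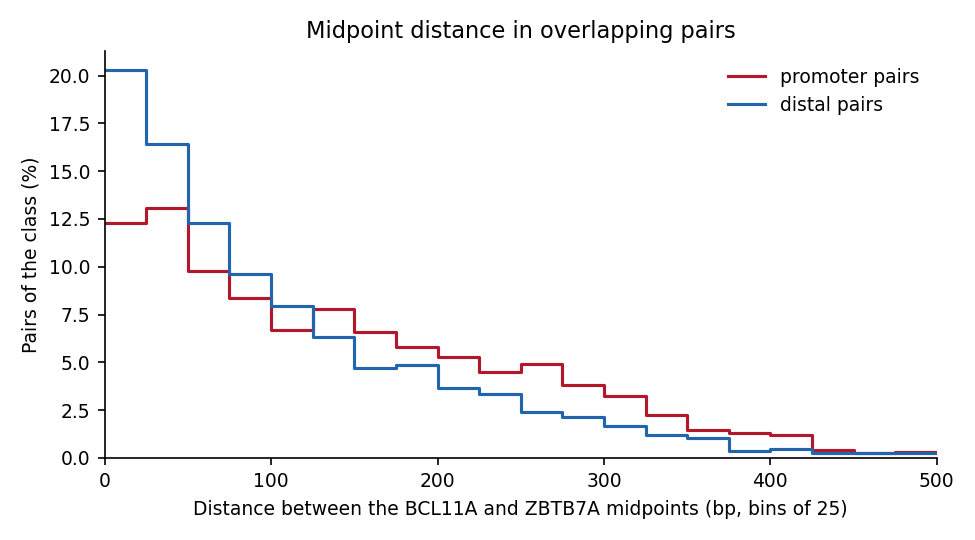
Distance between the midpoints of the BCL11A and the ZBTB7A region of a pair, in bins of 25 bp up to 500 bp, as percent of promoter pairs (red, 2638) and of distal pairs (blue, 1957). Distal pairs are more concentrated at short distances, with 37.0% at 50 bp or less against 25.8% of promoter pairs.

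Unshared regions had a region of the other list close by more often at promoters than at distal sites, though most had none within 1 kb. Promoter regions of both lists lie within 1 kb of a start by definition, and the part of this rule was not tested. Of 3118 BCL11A promoter regions with no overlap, 25.0% had a ZBTB7A region within 500 bp and 32.6% within 1 kb, against 5.85% and 10.6% of 5658 distal ones. Of 5283 ZBTB7A promoter regions with no overlap, 15.5% had a BCL11A region within 500 bp and 20.6% within 1 kb, against 4.20% and 7.45% of 7863 distal ones. The median gap of unshared BCL11A regions was 11418 bp at promoters and 17242 bp at distal sites. Regions wider than the commonest width were shared most, but sharing did not follow width throughout. BCL11A regions wider than 370 bp were overlapped in 57.9% of cases at promoters (135 of 233) and 53.7% at distal sites (153 of 285), against 42.0% and 21.3% of those of exactly 370 bp. For ZBTB7A regions wider than 490 bp the shares were 44.3% and 43.3%, against 28.7% and 13.0% at exactly 490 bp. Regions narrower than these widths were shared in 42.1% (promoter) and 27.8% (distal) of cases for BCL11A and in 28.6% and 17.9% for ZBTB7A.

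The 10 best-placed promoter pairs were taken by the sum of both ranks. KMT2B, which encodes a histone H3 lysine 4 methyltransferase, led with BCL11A rank 118 (score 399) and ZBTB7A rank 195, but its regions shared only 177 bp and their midpoints were 531 bp apart. The next were FAM3C, a secreted factor gene, with 481 shared bp, and PDIA6, with 463 shared bp and midpoints 33 bp apart (BCL11A rank 55, score 582; ZBTB7A rank 402). HNRNPR, an RNA-binding protein gene, had ranks 383 and 141. DNAJB2, a gene for a co-chaperone, had midpoints 9 bp apart, the closest of the 10 pairs. VARS (valyl-tRNA synthetase), PDE4C (a cAMP phosphodiesterase), MRPL40 and HIRA on 1 shared region (a mitochondrial ribosomal protein and a histone chaperone), TIMM17A (mitochondrial import) and POP7 (an RNase P subunit) completed the 10. All but the VARS pair were also overlapped by ZBTB7A regions of both HUDEP-2 lists. Of all BCL11A promoter regions shared with K562 outside chromosome 11, 1288 of 2204 were in both.

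The 10 best-placed distal pairs included 5 that were absent from both HUDEP-2 ZBTB7A lists. Of all distal BCL11A regions shared with K562 outside chromosome 11, 387 of 1689 were absent from both. The leading pair lay in an intron of MYT1 (chromosome 20, 64221093 to 64221537, hg38), with BCL11A rank 73 (score 496) and ZBTB7A rank 19. Second was a pair 4343 bp from the nearest start, that of IGF2BP3, which encodes a fetal-stage RNA-binding protein (ranks 126 and 86). Next was a pair 6749 bp from SPDEF, an ETS factor gene (ranks 38 and 192, score 732). Another lay 25769 bp from GFI1B, which encodes an erythroid and megakaryocyte repressor (chromosome 9, 133004234 to 133004725; ranks 263 and 82). A further one lay 229197 bp from GSE1, a corepressor component gene (chromosome 16, 85381925 to 85382526), with the sixth highest BCL11A score of the list, 1473, and ZBTB7A rank 340. The others were nearest to TMEM132C, FGD2, LCTL and ANXA3 or lay in an intron of TESC. The pairs at MYT1, SPDEF, GFI1B, GSE1 and FGD2 were overlapped by no region of either HUDEP-2 ZBTB7A list.

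Of the 126 BCL11A regions whose own decile and whose best partner's decile were both the first, 83 were distal and 43 were promoter regions. Leaving out chromosome 11, where the HUDEP-2 ZBTB7A lists use a modified sequence, 22 of the 81 distal ones (27.2%) were in neither HUDEP-2 ZBTB7A list, against 6 of the 42 promoter ones (14.3%). Over all BCL11A regions shared with K562, outside chromosome 11, 387 of 1689 distal and 471 of 2204 promoter regions were in neither list. The HUDEP-2 lists come from single libraries, and absence from them is not absence of binding.

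Some strong regions had no partner. The 10 best BCL11A promoter regions with no ZBTB7A region within 1 kb included genes of blood cells. GP1BB, a platelet glycoprotein gene, had the highest score of them (1093, rank 16) and lay 6918 bp from the nearest ZBTB7A region. CA1, which encodes a carbonic anhydrase abundant in red cells, had a score of 744 (rank 36) and lay 200 kb from one. FECH, which encodes ferrochelatase, the last enzyme of heme synthesis, had a score of 387 (rank 127), with the nearest ZBTB7A region 1282 bp away. The others were ZNF219, RPL13A, ARL2BP, PGP, ZNF221, ZFAND4 and FBXL17, with scores of 446 to 365. Of the 10, all but PGP were overlapped by a WT HUDEP-2 ZBTB7A region, but only GP1BB, CA1, FECH and ZFAND4 by a 195C>G region. Among all unshared BCL11A promoter regions outside chromosome 11, 55.3% met a WT region and 28.9% a 195C>G region. In the highest BCL11A decile, promoter and distal regions together, these shares of unshared regions were 65.4% and 41.9%. In all, 154 of the 485 BCL11A promoter regions in the highest decile had no ZBTB7A region within 1 kb. Over all deciles the share was larger, with 2103 of 5443 BCL11A promoter regions.

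On the ZBTB7A side the first was PELP1, a nuclear receptor coregulator gene, at rank 6 with the nearest BCL11A region 17182 bp away. Next came the region shared by ACIN1 and C14orf119 (rank 16), ZNF582 (rank 20), the region shared by IFT20 and TNFAIP1 (rank 22), CIB2 (rank 24) and the region shared by CHPF and TMEM198 (rank 33), whose sequence is given above. POLG, which encodes the mitochondrial DNA polymerase, stood at rank 46, followed by NYAP1, FUK and TP53RK, a p53-related kinase gene, at ranks 48, 57 and 58. Of these 10 regions, those of CHPF and NYAP1 were overlapped by no WT region, and these and that of ZNF582 by no 195C>G region. Among all unshared ZBTB7A promoter regions of K562 outside chromosome 11, 71.0% met a WT region and 50.1% a 195C>G region. Of the 819 ZBTB7A promoter regions in the first decile, 407 had no BCL11A region within 1 kb. Here too the share was larger over all deciles, with 4195 of 7654.

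The next comparison used the ZBTB7A lists of HUDEP-2 cells, the line in which BCL11A was mapped. The WT list held 36435 regions over 19.6 Mb, with a lowest signal of 15.0. The 195C>G list held 18784 regions over 9.63 Mb, with a lowest signal of 25.7. A shorter list can meet fewer regions, so lower 195C>G shares are not read as an effect of the substitution. Of all BCL11A regions outside chromosome 11, 39.6% met a 195C>G region and 57.5% a WT region, and those that ZBTB7A also bound in K562 did so more often. A 195C>G region overlapped 62.0% of the BCL11A regions shared with K562 (2413 of 3893, 60.4 to 63.5%), against 29.2% of the unshared (2439 of 8352, 28.2 to 30.2%). A WT region overlapped 76.0% of the shared ones (2958 of 3893, 74.6 to 77.3%), against 48.9% of the unshared (4086 of 8352, 47.8 to 50.0%). At promoters the WT shares were 76.7% and 55.3%, and at distal regions 75.0% and 45.4%. The 195C>G shares were 60.3% and 28.9% for promoters and 64.1% and 29.3% for distal regions. Between classes they differed less than the WT shares among unshared regions, but more among shared ones.

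Among unshared regions the overlap with both HUDEP-2 lists was lower at low BCL11A scores. The 195C>G overlap of shared regions was 65.9% in the highest BCL11A decile (369 of 560) and 57.4% in the lowest (170 of 296), with a range of 56.1 to 66.7% over the deciles. For unshared regions it was 41.9% in the highest (277 of 661) and 22.3% in the lowest (207 of 927). Among regions shared with K562, the WT overlap was 78.8% in the highest BCL11A decile (441 of 560) and 79.7% in the lowest (236 of 296). Among unshared regions it was 65.4% in the highest decile (432 of 661) and 38.7% in the lowest (359 of 927). The shared regions stood higher in 10 of 10 deciles, by 23.5 to 38.5 percentage points in 195C>G and by 13.4 to 41.0 percentage points in WT. Where WT regions met a BCL11A region, the highest of their signals, as the authors gave them, was taken. This value was also larger at shared BCL11A regions. Its medians were 51.3 at shared and 31.4 at unshared promoters, and 53.9 and 31.0 at distal regions (1691, 1650, 1267 and 2436 regions).

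From the ZBTB7A side, of all K562 regions outside chromosome 11, 46.2% met a 195C>G region and 62.5% a WT region. Those overlapped by BCL11A met a 195C>G region in 63.2% of cases (2503 of 3959), against 40.8% of the others (5042 of 12373). At promoters the 195C>G shares were 61.9% and 50.1%, and at distal regions 65.0% and 34.4%. They were 80.2% and 68.8% in the first decile of the K562 order and 52.0% and 27.5% in the last, so here the shared regions also differed with the order. The K562 regions overlapped by BCL11A met a WT region in 77.1% of cases (3054 of 3959), against 57.8% of the others (7157 of 12373). At promoters the WT shares were 78.1% and 71.0%, and at distal regions 75.9% and 48.9%. In the first decile of the K562 order they were 82.7% and 77.1%, a difference of 5.64 percentage points, and in the last 73.2% and 48.6%.

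Counting all 3 ZBTB7A lists together, 24.8% of BCL11A promoter regions outside chromosome 11 were in every one of them (1288 of 5186) and 24.4% were in none (1265). At distal regions 14.8% were in every one (1048 of 7059) and 39.5% in none (2791). A set of 471 promoter regions (9.08%) and 387 distal regions (5.48%) met ZBTB7A in K562 alone, in neither HUDEP-2 list.

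Sharing with K562 differed between chromosomes. Chromosomes 8, 13, 14, 18 and 22 held fewer ZBTB7A than BCL11A regions, with 0.698 to 0.885 K562 regions per BCL11A region, while the other 18 held 1.10 or more. On these 5 chromosomes 21.0% of BCL11A regions were overlapped by K562 ZBTB7A (410 of 1949, 19.2 to 22.9%; 17.8 to 22.6% by chromosome), against 33.9% on the other 18 (3715 of 10952, 33.0 to 34.8%; 25.4 to 41.0%). In the other direction, 26.5% of K562 regions on the 5 chromosomes were overlapped by BCL11A (411 of 1552), against 23.9% on the other 18 (3774 of 15779). The WT list overlapped 52.7% of BCL11A regions on the 5 (1027 of 1949; 46.6 to 65.8% by chromosome), against 58.5% elsewhere (6014 of 10286; 31.4 to 73.7%). Over 23 chromosomes the number of K562 regions per BCL11A region and the overlapped share had Pearson's r of 0.67 and Spearman's rho of 0.66; with the share overlapped by WT regions, over 22 chromosomes, these were -0.03 and 0.27. The number of WT regions per BCL11A region and the share overlapped by WT had 0.45 and 0.51 over the same 22. The points share a list, so the correlations are descriptions. The chromosomes were picked by the count of regions after it was seen, and the copy number of either line is not in the lists; its part was not tested.

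At the level of genes, a promoter region of BCL11A was found for 4705 of 19336 protein-coding genes (24.3%) and one of ZBTB7A for 6393 (33.1%). Both were found for 2863 genes, 14.8% of all, which is 60.9% of the BCL11A genes and 44.8% of the ZBTB7A genes. With the first 50% of each list the genes with both numbered 1148. In 2180 genes (11.3% of all, 76.1% of those with both) the regions overlapped, and in 683 both factors had a promoter region without overlap. An example is U2AF2, a splicing factor gene with BCL11A rank 226 and ZBTB7A rank 161, whose regions did not overlap. The gene lists below, 341 genes with 12 in more than 1 list, are read against these percentages and have no test of their own.

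At globin genes BCL11A was present more often than ZBTB7A. Of 10 globin genes 6 had a BCL11A and 2 a ZBTB7A promoter region, and only HBZ, the embryonic ζ-globin gene, had an overlapping pair (BCL11A rank 1946, score 75.5; ZBTB7A rank 4925). HBQ1 had both without overlap. HBG2 and HBG1, the fetal genes, had BCL11A regions 193 and 293 bp from their starts, with scores of 49.5 and 20.9 (ranks 3471 and 9092). The nearest ZBTB7A region, at rank 15129, lay 1900 bp from the HBG2 start and 3024 bp from that of HBG1. HBA2 and HBM, α-globin locus genes, also had BCL11A alone. HBG1 and HBG2, like HBA1 and HBA2, are near-identical copies, so reads can be split between them and their values are uncertain.

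Around the globin genes, with 60 kb on each side, the β-globin locus held 10 BCL11A regions and 3 ZBTB7A regions, which met at 2 places. One lay 10903 bp from the HBE1 start (chromosome 11, 5280691 to 5281004), with a BCL11A score of 192 (rank 460), ZBTB7A rank 2550 and 302 shared bp. The other (5288100 to 5288469) had as its nearest start that of OR51B4, an olfactory receptor gene, 13661 bp away, with a BCL11A score of 39.9 and ZBTB7A rank 16308. The α-globin locus held 8 BCL11A regions, of which 4 were overlapped, and 11 ZBTB7A regions, of which 6 were overlapped. Its pair of lowest ZBTB7A rank lay in an intron of NPRL3 (chromosome 16, 113436 to 113554), the gene that holds α-globin enhancers, with ZBTB7A rank 41 and BCL11A rank 2351.

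Lists of erythroid genes lay above the 14.8% of all genes in the share with both factors. So did the lists of corepressor, fetal globin regulator, core splicing, ribosomal protein, cell cycle, glycolysis and BCL2 family genes, at 16.7 to 40.0%. Only the megakaryocyte and platelet, myeloid, lymphoid, and hepatocyte and neuron lists lay below 14.8%, at 0 to 7.14%. Among 32 erythroid transcription factor genes 17 had BCL11A, 26 had ZBTB7A and 14 (43.8%) had both, with an overlapping pair in every one of the 14. The best pairs were those of NFE2, the gene of an erythroid leucine zipper factor (BCL11A score 1270, rank 10; ZBTB7A rank 1376), GATA2 (score 315, rank 193; rank 1601) and NFE2L2, a gene of the oxidative stress response (score 75.4, rank 1953; rank 193). TAL1, KLF1, GFI1B, RUNX1 and ZBTB7A itself were among the others. GATA1, NFE2L1 and BCL11A had BCL11A alone, and 12 genes, MYB, MYC, SOX6, LMO2 and LDB1 among them, had ZBTB7A alone.

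Iron and heme transport genes had the largest share of the 17 lists with both factors, 12 of 20 (60.0%), of which 9 overlapped. Their best pairs were at TFR2, a transferrin receptor gene (BCL11A rank 2077, score 71.8; ZBTB7A rank 345), ABCB10, a mitochondrial transporter gene (ranks 5132 and 560), and FLVCR1, the heme exporter gene (ranks 9650 and 1419). HMOX1, the heme oxygenase gene, had BCL11A alone. Among 9 heme synthesis genes 4 had both and 3 a pair, PPOX and CPOX among them, while ALAS1 and FECH had BCL11A alone and ALAD and UROS ZBTB7A alone.

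Of 31 genes for red cell membrane and surface proteins 13 (41.9%) had both, led by ADD1, an adducin gene (score 235, rank 320; ZBTB7A rank 2023), ANK1, the ankyrin gene (score 86.3; rank 1470), and EPOR, the erythropoietin receptor gene (score 951, rank 22; rank 3933). SLC4A1, which encodes the anion exchanger band 3, had BCL11A alone, at a score of 43.7. Of 20 erythropoietin and KIT signalling genes 8 had both, all with a pair; SOCS1 and SH2B3, genes of signalling inhibitors, joined EPOR as the best placed.

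Among 25 genes of NuRD and other corepressors, the complexes that both factors recruit, 10 (40.0%) had both and 7 a pair, with GATAD2A (ranks 1020 and 4578), MBD3 (ranks 4991 and 1735) and KDM1A (ranks 2410 and 7875) best placed. Of 24 fetal globin regulators 6 (25.0%) had both and 5 a pair, led by KLF1, ZBTB7A (score 22.3, rank 8529; ZBTB7A rank 1106) and EIF2AK1, the heme-regulated kinase gene. LIN28B, HIC2, IGF2BP1, MYB and SOX6 were among 11 with ZBTB7A alone.

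In lists of general cell functions both factors were found at 9 of 25 core splicing factor genes (36.0%, with 7 pairs, HNRNPR first), 9 of 35 cytosolic ribosomal protein genes (25.7%, 8 pairs), 5 of 25 cell cycle and p53 genes (20.0%, 4 pairs) and 4 of 20 glycolysis genes (20.0%, all with pairs, HK1 first). Of 18 genes of the BCL2 family, which govern apoptosis, 3 had BCL11A and 11 had ZBTB7A, against 24.3% and 33.1% of all genes. The 3 were all among the 11, so 16.7% had both, close to the 14.8% of all genes. BBC3 and PMAIP1, the genes of PUMA and NOXA, had pairs, with low BCL11A scores of 15.7 each. Of 14 megakaryocyte and platelet genes 3 had BCL11A, among them GP1BB and TUBB1 (scores 1093 and 217), 2 had ZBTB7A and 1 had both (ITGB3). BCL11A was found at 1 of 15 myeloid, 1 of 15 lymphoid and 1 of 15 hepatocyte and neuron genes, and ZBTB7A at 2, 3 and 2 of them. Both were found at 0 myeloid genes, 1 lymphoid gene (RAG1) and 1 hepatocyte or neuron gene (SYP).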

How the data were processed

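ChIP-seq was made from 16 libraries, and the authors deposited 4 peak lists, of which the BCL11A and K562 ZBTB7A lists are the subject. Reads were handled with Trimmomatic 0.3.2, Bowtie2 2.2.9, Bowtie, Picard and bedtools on GRCh38/hg38, per the submitters' processing notes. Both lists are named as optimal sets of the irreproducible discovery rate (IDR), a filter over replicates, so each pools its replicates. In the BCL11A list as deposited by the authors each region has a score of unstated scale, and the deposited HUDEP-2 ZBTB7A lists, from single libraries, give a signal per region. The deposited K562 list holds no value, and its file order was taken as its rank; whether that order follows strength is not known.

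Regions on standard chromosomes were kept, 91 BCL11A and 852 K562 repeats of an interval were removed, and overlaps of at least 1 bp were counted (pandas 2.3.3, numpy 2.4.6); the counts were checked against bedtools 2.31.1 and on simulated lists. Overlapping intervals of 1 list stayed apart, so 12911 and 17331 regions are 11953 and 15594 separate sites. Transcription starts came from the authors' annotation, and on chromosome 11, where that annotation follows a modified sequence, from RefSeq (1266 of 1274 genes matched). Coordinates are 1-based. Intervals were computed with SciPy 1.17.1. Depth per sample is unknown.

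Named genes were the 10 promoter and the 10 distal pairs of smallest rank sum, the 10 best promoter regions of each list with no partner within 1 kb, the best 3 pairs of each gene list, all globin genes, and BCL11A and ZBTB7A; others are named as examples chosen after their values were seen. Some genes that this rule picks are not reported here. The members and lists were chosen with earlier results of these data known. Alternatives were reciprocal overlap, midpoints, the first 50% of each list, merged regions, other promoter windows and, added after seeing the data, a fixed width and left-out chromosomes.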

Additional observations from a re-analysis of the deposited data

How the results depend on the processing

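Of 36 alternatives to the 9 values compared, 10 stayed within the counting interval (for gene counts, within 1.5 times). The other 26 moved, most by making overlap stricter or the lists shorter. No difference between groups changed sign. The overlap shares and the gene count cannot change sign, so for them only the size of the change is informative. The share of BCL11A regions overlapped, 31.9%, was 18.9% with a reciprocal overlap of at least 50%, 26.7% with a midpoint inside the other region, 24.6% in the first 50% of each list, 30.0% with every region set to 300 bp and 33.9% without the 5 chromosomes with fewer K562 regions. The ZBTB7A share, 24.1%, was 14.3%, 20.1%, 17.9% and 22.8% under the first 4 of these. The promoter-minus-distal difference, 18.6 percentage points for BCL11A, was 8.12 with reciprocal overlap, 15.3 with a 5 kb window, 11.6 in the first 50% and 16.1 at 300 bp; for ZBTB7A, 12.2 points, it was 4.96, 9.73, 5.56 and 10.6. The first-minus-last decile difference, 21.7 points by BCL11A score, was 16.6 with reciprocal overlap, 15.7 at promoters and 25.9 at distal regions; by K562 order, 17.0 points, it was 11.5, 12.9 and 20.8. The shared-minus-unshared difference in HUDEP-2 overlap was, with reciprocal overlap, 29.0 points against 32.8 for 195C>G and 24.7 against 27.1 for WT. Genes with both factors numbered 1148 in the first 50% of each list, against 2863. No paired analysis was possible because each deposited list pools its replicates, and leaving out a replicate was not run, since the lists hold no replicate. Depth is unknown, and an unshared region is one not listed at the authors' threshold.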
